A study of Mus musculus with 30 samples.

Results

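Hox cluster genes were examined in mouse embryo fibroblasts that carried an inducible MyoD or a control retrovirus. A gene counted as a member when the symbol of its probe set on the array was Hox followed by a, b, c or d and a paralog number, and each gene was represented by its probe set with the highest mean over the 30 arrays. This gave 33 Hox genes of 18193 genes in all. Cluster a on chromosome 6 gave 9 of its 11 genes, cluster b on chromosome 11 gave 9 of 10, cluster c on chromosome 15 gave 7 of 9, and cluster d on chromosome 2 gave 8 of 9. The other genes of the clusters were not analysed here as single genes.

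All cells came from MyoD-/-/Myf5-/- animals, so the control cells also lacked both of these muscle-determining transcription factors. The cells were transduced with 1 of 3 retroviruses. ER-MyoD wt is mouse MyoD joined to the hormone-binding domain of the estrogen receptor, which keeps the fusion inactive until beta-estradiol is added. ER-MyoD RRR is that fusion with point mutations at lysines 99, 102 and 104, which can then no longer be acetylated, and the empty retrovirus has no insert. Beta-estradiol was added together with differentiation medium, and arrays were made after 0, 6, 12 and 24 h for ER-MyoD wt and after 6, 12 and 24 h for ER-MyoD RRR and the empty retrovirus, with 3 arrays in each of the 10 groups. For the latter 2 constructs no 0 h arrays were analysed here. A change from 0 h therefore combines the medium, the hormone and the fusion, and a difference between transduced populations before induction cannot be told apart from the later effect of a construct. Transduced cells were profiled as populations, and the labels do not call the 3 arrays of a group separate cultures. The p-values therefore cover only the spread between these arrays, which may be technical.

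Hox genes encode homeodomain transcription factors that tell cells where they lie along the body and limb axes. In each cluster the genes stand in the order in which they are used along the body, from anterior paralogs with low numbers to posterior paralogs with high numbers, and Polycomb and Trithorax chromatin complexes keep this pattern through cell division. Cultured fibroblasts are known for retaining the Hox pattern of the site they came from, whereas MyoD converts fibroblasts to skeletal muscle cells.

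The deposited signals are linear fluorescence intensities, which are given below for single arrays. Differences are on the log2(signal + 16) scale after quantile normalization, come from limma with Benjamini-Hochberg adjustment over all 18193 genes, and are given ± the standard error of the fit. The threshold was an adjusted p under 0.05. Replicate arrays correlated between 0.946 and 0.973, and 27 of 30 arrays lay nearest to an array of their own group. Array medians ran from 38.0 to 64.1, with the highest in empty retrovirus 12 h replicate 1 and ER-MyoD wt 24 h replicate 3, and ER-MyoD RRR 6 h replicate 2 gave higher 3' to 5' ratios than any other array (2.44 for Gapdh and 3.61 for Actb). These 3 arrays are called the arrays that stand apart. The Myod1 probe set, whose position in the fusion transcript was not checked, gave a mean of 1185 in ER-MyoD wt at 0 h. At 6, 12 and 24 h its means were 897, 802 and 612 in ER-MyoD wt and 863, 535 and 471 in ER-MyoD RRR. In empty retrovirus they were 167, 182 and 228. Summed signals of 10 fibroblast markers lay between 22645 and 51887 in all groups. The sum of 7 skeletal muscle markers went from 1030 at 0 h to 42246 at 24 h in ER-MyoD wt, reached 29570 in ER-MyoD RRR at 24 h and stayed between 126 and 142 in empty retrovirus.

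A mean signal of at least 50 over the 30 arrays was found for 19 of the 33 Hox genes. They were Hoxa2, Hoxa3, Hoxa5, Hoxa9 and Hoxa11, Hoxb2 to Hoxb6 and Hoxb9, Hoxc4, Hoxc5, Hoxc6, Hoxc8 and Hoxc9, and Hoxd3, Hoxd8 and Hoxd9. The other 14, among them the terminal paralogs Hoxa13, Hoxb13, Hoxc13 and Hoxd13, had lower signals, and the pseudocount shrinks their differences most. Signals of different probe sets are not compared with each other here.

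**Figure D1:**
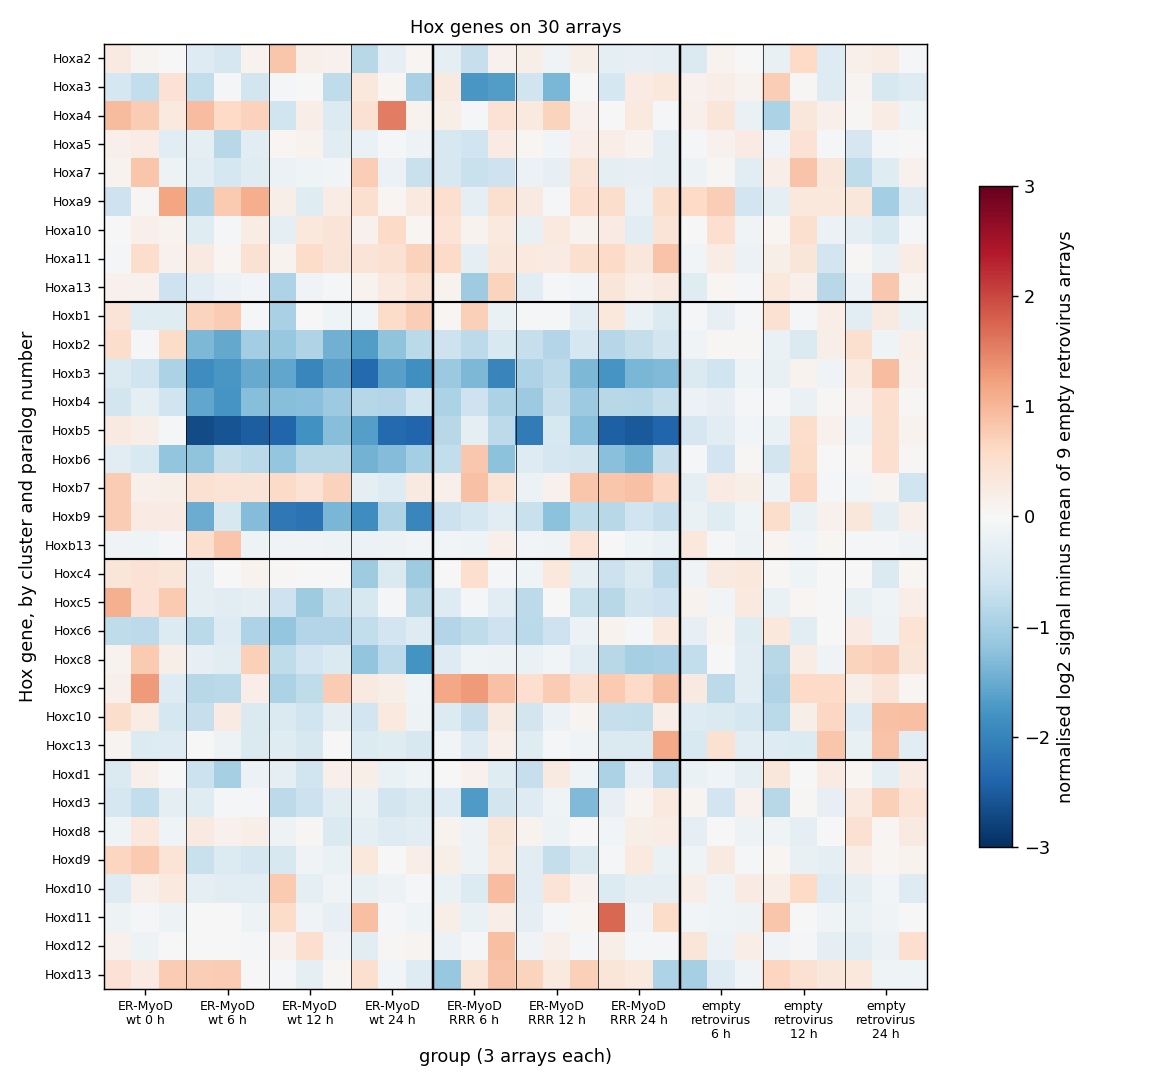
Each row is 1 of the 33 Hox genes and each column 1 of the 30 arrays, grouped by construct and time. Colour gives the normalised log2 signal minus that gene's mean over the 9 empty retrovirus arrays, with blue for lower. Hoxb2 to Hoxb6 and Hoxb9 were lower on every ER-MyoD wt array from 6 h on, and Hoxc9 was higher on the ER-MyoD RRR arrays.

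In the mean of 6, 12 and 24 h, Hox genes that passed between ER-MyoD wt and empty retrovirus were all lower in ER-MyoD wt. With 1 probe set per gene they were all in clusters b and c, although the share of the 33 that passed was near that of all genes. At single times Hoxd3, Hoxd8 and Hoxd9 of cluster d also passed, as given below. Averaged over 6, 12 and 24 h, 10 of the 33 Hox genes were lower in ER-MyoD wt and 0 were higher by limma. They were Hoxb2, Hoxb3, Hoxb4, Hoxb5, Hoxb6, Hoxb9, Hoxc4, Hoxc5, Hoxc6 and Hoxc8. At an unadjusted p under 0.05, 12 were lower and 1 was higher. Of all genes, 29.1% passed in either direction, 16.1% lower and 13% higher, so the share of Hox genes that passed in either direction (30.3%) was near the background while their direction was one-sided. The split of all genes depended on the scaling, since 2365 were higher and 2926 lower here but 2774 and 1978 when arrays were only centred on their medians; 0 Hox genes were higher and 9 lower under that centring. The median log2 difference was -0.22 over the Hox genes and 0.01 over all genes. In such bulk RNA, fewer cells of a type and less RNA per cell cannot be told apart.

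Cluster b held the largest differences, with 6 of 9 genes lower and a median of -1.18. The 9 ER-MyoD wt arrays did not overlap with the 9 empty retrovirus arrays for any of these 6 genes, and 3.01% of all genes were lower without overlap. Hoxb2, which patterns the hindbrain, gave ER-MyoD wt signals of 508, 317 and 522 at 0 h, 114, 103 and 149.7 at 6 h, 148, 181 and 106 at 12 h, and 99.1, 132 and 194 at 24 h. ER-MyoD RRR signals of Hoxb2 were 212, 174 and 236 at 6 h, 215, 173 and 239 at 12 h, and 189, 214 and 235 at 24 h. Empty retrovirus signals of Hoxb2 were 330.4, 366 and 357 at 6 h, 300.3, 251 and 393 at 12 h, and 488, 318 and 392 at 24 h. All 9 induced ER-MyoD wt arrays were below every empty retrovirus array, whereas the 0 h arrays were as high as the empty retrovirus arrays or higher. Its difference was -1.23 ± 0.12 (adjusted p = 2.80e-09).

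Hoxb3, an anterior gene of hindbrain and pharyngeal arches, had ER-MyoD wt signals of 352, 304 and 233 at 0 h, 112, 129 and 156 at 6 h, 156, 114 and 139 at 12 h, and 87.1, 140.0 and 139 at 24 h. Its ER-MyoD RRR signals were 212, 166 and 100.1 at 6 h, 261, 273 and 183 at 12 h, and 138, 192 and 197 at 24 h. Its empty retrovirus signals were 371, 333 and 452 at 6 h, 404, 551 and 461 at 12 h, and 588, 920.0 and 551 at 24 h. The ER-MyoD wt arrays from 6 h on were well below all empty retrovirus arrays, with ER-MyoD RRR in between or overlapping with ER-MyoD wt. The difference of -1.79 ± 0.13 (adjusted p = 8.96e-12) corresponds to a 3.45-fold lower level on the scale with the pseudocount.

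Hoxb4, known for expanding blood stem cells when overexpressed, read 222, 269 and 214 at 0 h, 97.0, 87.7 and 129 at 6 h, 134, 139 and 146 at 12 h, and 192, 176 and 227 at 24 h in ER-MyoD wt. In ER-MyoD RRR, Hoxb4 read 167, 205 and 161 at 6 h, 160.2, 204 and 154 at 12 h, and 196, 199 and 215 at 24 h. In empty retrovirus, Hoxb4 read 322, 307 and 349 at 6 h, 338, 308 and 365 at 12 h, and 397, 499 and 373 at 24 h. Neither construct overlapped with the control arrays at any time, and the ER-MyoD wt signals at 0 h were also below all control signals. The difference for ER-MyoD wt was -1.18 ± 0.09 (adjusted p = 2.26e-11).

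Hoxb5, which acts in lung and enteric nervous system development, read 149, 136 and 115 at 0 h, 5.51, 8.70 and 8.64 at 6 h, 11.7, 24.3 and 40.3 at 12 h, and 30.1, 11.0 and 15.8 at 24 h in ER-MyoD wt. In ER-MyoD RRR, Hoxb5 read 62.4, 95.3 and 59.5 at 6 h, 16.8, 83.5 and 42.2 at 12 h, and 12.2, 11.3 and 14.4 at 24 h. In empty retrovirus, Hoxb5 read 96.4, 109 and 129.9 at 6 h, 136, 195 and 149 at 12 h, and 134, 196 and 153 at 24 h. ER-MyoD wt dropped at 6 h, ER-MyoD RRR stayed between the other constructs at 6 h and was as low as ER-MyoD wt at 24 h, and the control arrays stayed high. The difference was -2.18 ± 0.19 (adjusted p = 1.64e-10). With ER-MyoD wt signals this low, its size depended on the pseudocount of 16, and it was -3.02 with a pseudocount of 1 and -1.26 with 64, where that of Hoxb3 was -1.51. The other Hoxb5 differences below depended on the pseudocount in the same way, and all of them passed with either.

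Hoxb6, a gene of the trunk, read 144, 131 and 73.1 at 0 h, 66.2, 112 and 99.5 at 6 h, 79.6, 106 and 97.6 at 12 h, and 66.1, 63.5 and 107 at 24 h in ER-MyoD wt. In ER-MyoD RRR, Hoxb6 read 108, 352 and 67.4 at 6 h, 154, 132 and 130.3 at 12 h, and 83.4, 75.3 and 132 at 24 h. In empty retrovirus, Hoxb6 read 211, 139 and 215 at 6 h, 155, 309 and 206 at 12 h, and 230.5, 299 and 224 at 24 h. The ER-MyoD wt arrays from 6 h on were all below the control arrays, and the 1 high ER-MyoD RRR value at 6 h came from replicate 2, an array that stands apart. The 0 h signals of 131 and 73.1 were also below all control signals, and Hoxb6 did not pass from 0 to 6 h or from 0 to 24 h. The difference was -1.03 ± 0.20 (adjusted p = 0.000148).

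Hoxb9, which helps to specify the thoracic skeleton, read 303, 198 and 201 at 0 h, 44.1, 117 and 56.0 at 6 h, 27.6, 24.8 and 53.3 at 12 h, and 36.9, 77.6 and 44.0 at 24 h in ER-MyoD wt. In ER-MyoD RRR, Hoxb9 read 102, 109 and 125 at 6 h, 105, 63.6 and 96.2 at 12 h, and 102, 124 and 117 at 24 h. In empty retrovirus, Hoxb9 read 166, 145 and 169 at 6 h, 272, 151 and 204 at 12 h, and 252, 153 and 216 at 24 h. The ER-MyoD RRR means lay between those of the other constructs at each time, and no ER-MyoD RRR signal reached the control signals. The difference for ER-MyoD wt was -1.53 ± 0.17 (adjusted p = 1.67e-08). Hoxb1, which specifies a hindbrain segment, Hoxb7 and Hoxb13, the terminal gene of the cluster, did not pass, with differences of 0.16 ± 0.19, 0.28 ± 0.17 and 0.04 ± 0.10, all from probe sets with a mean signal under 50.

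**Figure D2:**
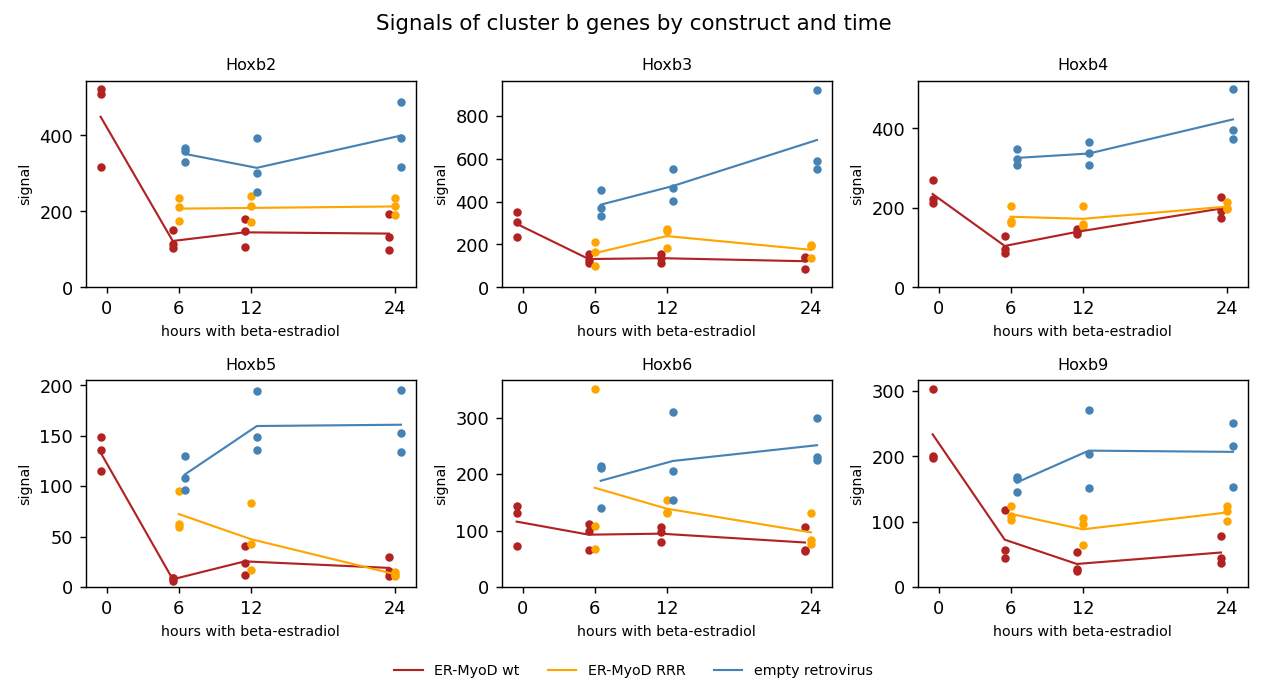
Signals (linear, vertical axis from 0) of 6 cluster b genes against hours with beta-estradiol, 1 point per array, with lines through the means of 3 arrays, slightly offset by construct. Within ER-MyoD wt the mean is highest at 0 h, and from 6 h to 24 h the points stay below empty retrovirus, with ER-MyoD RRR mostly between them.

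In cluster c, 4 of 7 genes were lower in ER-MyoD wt, all of them central paralogs, and the cluster median was -0.30. Hoxc4 read 299.6, 315 and 301 at 0 h, 186, 232 and 257 at 6 h, 244, 239.5 and 232 at 12 h, and 109, 166 and 119.5 at 24 h in ER-MyoD wt. In ER-MyoD RRR, Hoxc4 read 237, 335 and 220.3 at 6 h, 226, 295 and 198 at 12 h, and 152, 185 and 145 at 24 h. In empty retrovirus, Hoxc4 read 234, 305 and 309.5 at 6 h, 255, 219 and 244 at 12 h, and 258, 184 and 262 at 24 h. The constructs overlapped at 6 and 12 h and ER-MyoD wt was below the control arrays at 24 h. The averaged difference of -0.30 ± 0.11 (adjusted p = 0.0354) did not pass in 13 of 28 alternatives, with values down to -0.23.

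Hoxc5 read 422, 252 and 339 at 0 h, 147, 144 and 151 at 6 h, 119.8, 84.5 and 107 at 12 h, and 139.8, 179 and 117 at 24 h in ER-MyoD wt. In ER-MyoD RRR, Hoxc5 read 138, 172 and 139.8 at 6 h, 107, 191 and 114 at 12 h, and 110.0, 139.7 and 135 at 24 h. In empty retrovirus, Hoxc5 read 225, 195 and 248 at 6 h, 186, 203 and 202 at 12 h, and 186, 187 and 239.5 at 24 h. ER-MyoD wt signals from 6 h on were below those of the control at the same time, and 1 ER-MyoD RRR array (191 at 12 h) reached the control range. The difference for ER-MyoD wt was -0.51 ± 0.12 (adjusted p = 0.00139), and -0.86 with the median of all probe sets of the gene.

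Hoxc6, which marks the forelimb and thoracic level, read 267, 263 and 359.5 at 0 h, 276, 366 and 248 at 6 h, 208, 262 and 249.5 at 12 h, and 296, 326 and 354 at 24 h in ER-MyoD wt. In ER-MyoD RRR, Hoxc6 read 257, 262 and 307 at 6 h, 283, 305 and 436 at 12 h, and 521, 463 and 573 at 24 h. In empty retrovirus, Hoxc6 read 415, 523 and 376 at 6 h, 562, 398 and 491 at 12 h, and 574, 439.9 and 653 at 24 h. ER-MyoD wt did not overlap with the control at any time, whereas ER-MyoD RRR reached the control range from 12 h on. The ER-MyoD wt signals at 0 h were also below all control signals, and Hoxc6 did not pass from 0 to 6 h or from 0 to 24 h. The difference for ER-MyoD wt was -0.75 ± 0.11 (adjusted p = 2.16e-06).

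Hoxc8, which acts in brachial motor neurons and thoracic vertebrae, read 123, 206 and 129 at 0 h, 90.3, 91.4 and 208 at 6 h, 64.7, 77.5 and 78.2 at 12 h, and 44.8, 55.8 and 30.5 at 24 h in ER-MyoD wt. In ER-MyoD RRR, Hoxc8 read 86.1, 101 and 96.8 at 6 h, 102, 109.5 and 90.7 at 12 h, and 68.8, 63.3 and 64.7 at 24 h. In empty retrovirus, Hoxc8 read 74.1, 133 and 101 at 6 h, 84.1, 145 and 116 at 12 h, and 225, 226 and 177 at 24 h. The constructs overlapped at 6 h and stood apart at 24 h, when the control was high and ER-MyoD wt low. The averaged difference was -0.60 ± 0.17 (adjusted p = 0.00609). Hoxc9, Hoxc10 and Hoxc13, the posterior genes of the cluster, did not pass, with differences of -0.23 ± 0.25, -0.29 ± 0.22 and -0.30 ± 0.21.

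No gene of cluster a or cluster d passed in ER-MyoD wt minus empty retrovirus averaged over the times. In cluster a, 1 of 9 genes (Hoxa11, a gene of the forearm, 0.37 ± 0.15) had an unadjusted p under 0.05. In cluster d, 2 of 8 had one (Hoxd3, -0.38 ± 0.18, and Hoxd9, -0.21 ± 0.10). Medians were -0.08 in cluster a and -0.11 in cluster d, and the 95% confidence intervals of the single genes lay within -0.84 to 0.78 in cluster a and -0.75 to 0.60 in cluster d. Whether clusters differed from each other was not tested.

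Hoxa5, which is needed for lung and airway development, read 141, 147 and 95.4 at 0 h, 98.3, 68.2 and 97.1 at 6 h, 141, 150.4 and 95.6 at 12 h, and 121, 121 and 133 at 24 h in ER-MyoD wt. In ER-MyoD RRR, Hoxa5 read 87.4, 79.9 and 151 at 6 h, 146, 121 and 158 at 12 h, and 163, 161 and 123 at 24 h. In empty retrovirus, Hoxa5 read 142, 161 and 172 at 6 h, 149, 189.5 and 133 at 12 h, and 106, 138 and 143 at 24 h. The constructs overlapped, and the difference for ER-MyoD wt was -0.22 ± 0.13 (adjusted p = 0.228). A second Hoxa5 probe set, with a mean signal of 108, was at 0.52 ± 0.25 in the opposite direction and did not pass. Hoxd8 read 705, 997 and 699 at 0 h, 961, 835 and 895 at 6 h, 677, 763 and 557 at 12 h, and 617, 581 and 563 at 24 h in ER-MyoD wt. In ER-MyoD RRR, Hoxd8 read 838, 683 and 1038 at 6 h, 824, 671 and 779 at 12 h, and 691, 793 and 825 at 24 h. In empty retrovirus, Hoxd8 read 605, 734 and 657 at 6 h, 612, 641 and 746 at 12 h, and 938, 759.6 and 889.5 at 24 h. ER-MyoD wt was above the control at 6 h and below it at 24 h, and the averaged difference was -0.11 ± 0.08 (adjusted p = 0.396).

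By position, 2 of 7 anterior genes (paralogs 1 to 3), 7 of 12 central genes (paralogs 4 to 8) and 1 of 14 posterior genes (paralogs 9 to 13) were lower in ER-MyoD wt. Of all genes, 16.1% were lower. The single posterior gene was Hoxb9. Among the 19 genes with a mean signal of at least 50, 10 were lower and 0 higher, so all calls fell on genes above that signal. Only Hoxa9, Hoxa11, Hoxb9, Hoxc9 and Hoxd9 of the posterior genes reached it, and all central genes did except Hoxa4, Hoxa7 and Hoxb7. The counts by position therefore cannot be told apart from signal level. In cluster b, 2 of 3 anterior, 3 of 4 central and 1 of 2 posterior genes were lower, and in cluster c, 4 of 4 central and 0 of 3 posterior. Of the central genes of the other clusters, 0 of 3 in cluster a and 0 of 1 in cluster d passed. Whether the positions differed within a cluster was not tested.

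**Figure D3:**
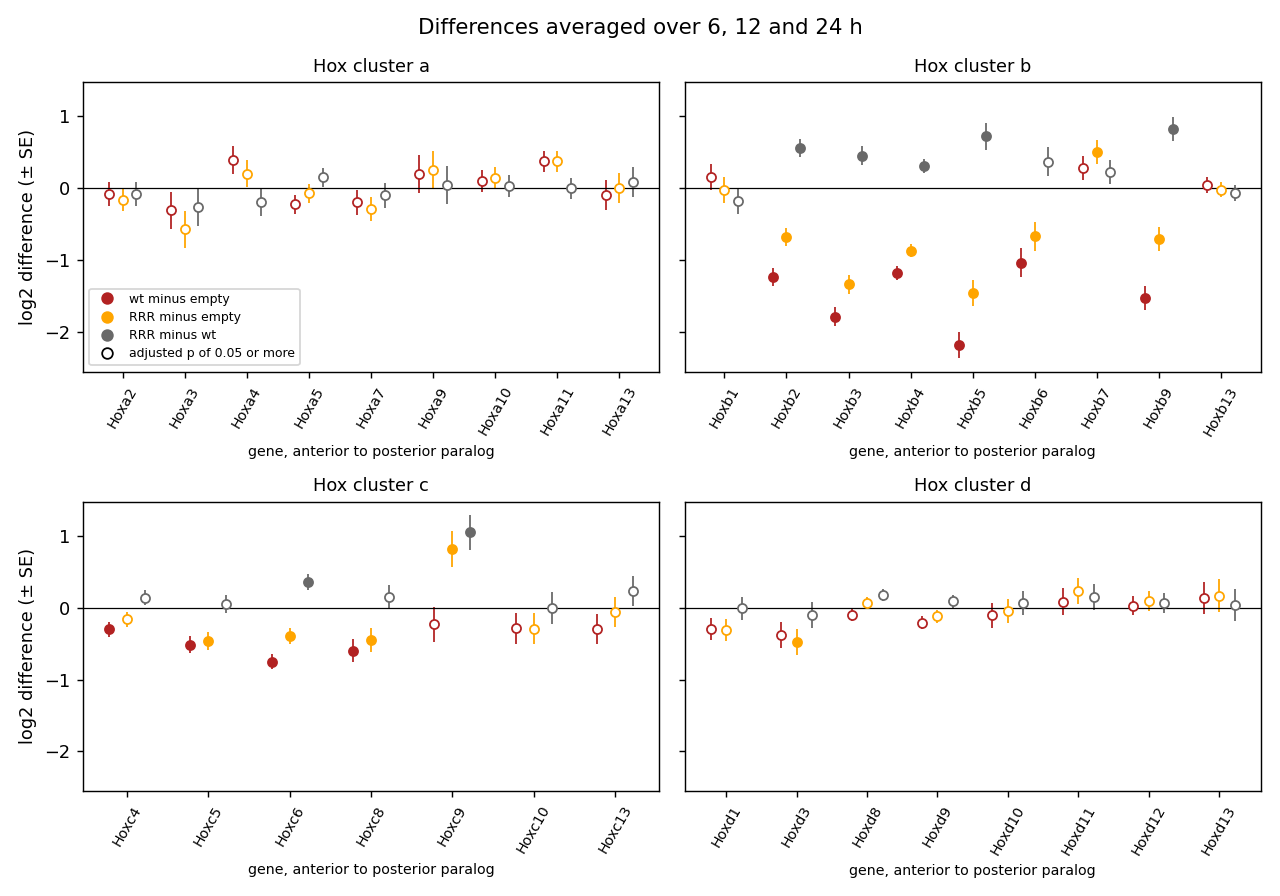
Log2 differences (± SE of the fit) averaged over 6, 12 and 24 h for each Hox gene, in 4 panels by cluster and ordered from anterior to posterior paralog; filled points passed at an adjusted p under 0.05. The filled points lie in clusters b and c, with 1 in cluster d (Hoxd3, RRR minus empty) and 0 in cluster a.

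Promoter windows are shown for Hoxb4 and Hoxc4, which were lower in ER-MyoD wt than in empty retrovirus, and for Hoxb1, which did not pass. RefSeq windows of 300 bases, 250 before to 50 after a transcript start in build GRCm38.p6, were matched for 19 of the 33 Hox genes (21 windows), and Hoxb4, Hoxb1 and Hoxc4 were the only cluster b and c genes among them. The E-box CANNTG is the core motif of MyoD and other bHLH factors, reads the same on both strands, and is written in capitals.
Hoxb4, chr11:96318017-96318316, plus strand: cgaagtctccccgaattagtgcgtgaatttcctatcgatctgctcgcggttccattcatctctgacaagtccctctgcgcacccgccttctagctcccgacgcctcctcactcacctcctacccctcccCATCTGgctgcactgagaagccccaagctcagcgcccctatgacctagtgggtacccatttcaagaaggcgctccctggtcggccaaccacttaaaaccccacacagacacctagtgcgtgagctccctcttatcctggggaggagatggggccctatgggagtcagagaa
Hoxb1, chr11:96365508-96365807, plus strand: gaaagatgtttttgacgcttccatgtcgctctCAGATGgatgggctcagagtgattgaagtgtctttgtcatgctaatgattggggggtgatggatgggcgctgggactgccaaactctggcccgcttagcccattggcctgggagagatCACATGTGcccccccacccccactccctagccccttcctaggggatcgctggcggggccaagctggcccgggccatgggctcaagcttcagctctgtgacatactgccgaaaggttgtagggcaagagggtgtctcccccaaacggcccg
Hoxc4, chr15:103034145-103034444, plus strand: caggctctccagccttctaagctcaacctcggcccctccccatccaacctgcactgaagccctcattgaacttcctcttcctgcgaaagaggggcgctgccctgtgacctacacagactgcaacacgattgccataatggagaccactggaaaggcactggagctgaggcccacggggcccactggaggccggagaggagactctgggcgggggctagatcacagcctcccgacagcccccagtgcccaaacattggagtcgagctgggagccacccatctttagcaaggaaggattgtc
The Hoxb4 window held 1 match, the Hoxb1 window 3, of which 2 overlapped, and the Hoxc4 window 0. A match to CANNTG was present in 15 of the 21 Hox windows (71.4%) and in 72.3% of all 32851 windows. The form CAGCTG was present in 14.3% of the Hox windows and 16.3% of all. The site TGATNNAT, which Hox proteins bind together with Pbx cofactors, was searched on both strands and present in 14.3% and 8.85%.

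At single times the genes of cluster b that were lower in ER-MyoD wt were largely called already at 6 h. At 6 h, 6 Hox genes were lower and 0 higher than in empty retrovirus (Hoxb2, Hoxb3, Hoxb4, Hoxb5, Hoxb9 and Hoxd9), where 12.7% of all genes passed and 6.23% were lower. With centring on the array medians, 5 Hox genes were lower and 1 higher at 6 h. All genes then split into 1374 higher and 526 lower in place of 1183 and 1133. At 12 h, 7 were lower and 0 higher (Hoxb2, Hoxb3, Hoxb4, Hoxb5, Hoxb9, Hoxc5 and Hoxc6), against 15.4% of all genes and 8.26% lower. At 24 h, 11 were lower and 0 higher, against 25.4% and 14% lower; these were Hoxb2, Hoxb3, Hoxb4, Hoxb5, Hoxb6, Hoxb9, Hoxc4, Hoxc6, Hoxc8, Hoxd3 and Hoxd8. At 6 h, when Hoxb5 differed by -2.29 ± 0.32 (adjusted p = 5.79e-06), the summed fibroblast markers were 29118 in ER-MyoD wt and 29516 in empty retrovirus. At 24 h they were 29802 and 51887, and the part of this difference in the Hox results was not tested. Without wt 6 h replicate 1, 4 Hox genes differed at 6 h, where Hoxb9 (-0.87 ± 0.29, adjusted p = 0.0443) and Hoxd9 (-0.55 ± 0.17, adjusted p = 0.0246) did not pass. Hoxb9 also did not pass without wt 6 h replicate 3 or any 1 of the empty retrovirus 6 h arrays, nor Hoxd9 without wt 6 h replicate 3 or empty retrovirus 6 h replicate 2. Hoxc5 at 12 h (-0.74 ± 0.21) did not pass with the median of all probe sets (-0.34) or without replicate 2 of either group, and Hoxd3 at 24 h (-0.87 ± 0.31) did not pass without any 1 of its 6 arrays.

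The difference between ER-MyoD wt and empty retrovirus itself moved from 6 to 24 h for 3 Hox genes, against 14.7% of all genes. Hoxc8 moved by -2.25 ± 0.41 (adjusted p = 0.000174), Hoxb3 by -1.06 ± 0.33 (adjusted p = 0.0250) and Hoxd8 by -0.92 ± 0.20 (adjusted p = 0.00187). For Hoxc8 the empty retrovirus mean rose from 103 to 209 and the ER-MyoD wt mean fell to 43.7 at 24 h. The Hoxb3 mean was 385 at 6 h and 686 at 24 h in the control and 132 and 122 in ER-MyoD wt. With the median of all probe sets the Hoxb3 value was -0.68. It did not pass without replicate 3 of ER-MyoD wt at 6 h (-0.96), its replicate 1 at 24 h (-0.86), or empty retrovirus 6 h replicate 1 (-1.04), 6 h replicate 2 (-0.95) or 24 h replicate 2 (-0.82).

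Within ER-MyoD wt, Hoxb2 to Hoxb5 and Hoxb9 had already dropped at 6 h, and the Hoxb9 mean was lowest at 12 h (35.2). From 0 to 6 h, a comparison added after the 0 h signals were seen, 7 Hox genes fell and 0 rose, against 17.7% of all genes in either direction and 8.2% lower. Hoxb5 fell by 2.72 ± 0.32, Hoxb2 by 1.66 ± 0.21, Hoxb9 by 1.51 ± 0.29, Hoxb4 by 1.06 ± 0.16 and Hoxb3 by 1.04 ± 0.23 on the log2 scale, with adjusted p between 3.43e-07 and 0.00139. Outside cluster b, Hoxd9 (a gene of limb and lumbar development) fell by 1.13 ± 0.17 and Hoxc5 by 1.06 ± 0.21. Cluster a had 0 of 9 genes past the threshold. The Hoxd9 signals were 360.1, 402 and 293 at 0 h, 130.2, 161 and 148 at 6 h, 158, 214 and 186 at 12 h, and 294, 224 and 260.1 at 24 h in ER-MyoD wt. They were 258, 185 and 284 at 6 h, 185, 127 and 165 at 12 h, and 225, 287 and 204 at 24 h in ER-MyoD RRR and 222, 292 and 226 at 6 h, 251, 195 and 190.0 at 12 h, and 282, 247 and 261 at 24 h in empty retrovirus. The mean was highest at 0 h, and the 6 h arrays of ER-MyoD wt were below all other arrays of that time.

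From 0 to 24 h in ER-MyoD wt, 8 Hox genes fell and 0 rose, against 30.7% of all genes and 16.2% lower. They were Hoxb2 (-1.57 ± 0.21), Hoxb3 (-1.27 ± 0.23), Hoxb5 (-2.26 ± 0.32), Hoxb9 (a mean signal of 234 at 0 h and 52.8 at 24 h), Hoxc4 (-1.24 ± 0.19), Hoxc5 (-1.21 ± 0.21), Hoxc8 (-1.61 ± 0.29) and Hoxd9 (-0.44 ± 0.17, adjusted p = 0.0420). Hoxd9 did not pass without replicate 1 or 2 at 0 h or replicate 2 or 3 at 24 h. Hoxb4 was not among them, since from 6 to 24 h it rose again by 0.76 ± 0.16 (adjusted p = 0.000467), as did Hoxd9 by 0.69 ± 0.17 (adjusted p = 0.00202). Between those times Hoxc8 fell by 1.31 ± 0.29 (-0.85 with a pseudocount of 64), Hoxc4 by 0.79 ± 0.19 and Hoxd8 by 0.52 ± 0.14. Hoxb13 passed too (-0.52 ± 0.19, adjusted p = 0.0440), from group means of 11.4 and 2.98 with overlapping arrays, and did not pass in 11 of 15 alternatives, with values from -1.44 with a pseudocount of 1 to -0.18 with 64. These 6 genes compare with 23.9% of all genes.

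In ER-MyoD RRR, 4 Hox genes changed from 6 to 24 h, against 23.9% of all genes. Hoxc6 rose by 0.87 ± 0.19 and Hoxd3 by 0.93 ± 0.31, while Hoxb5 fell by 1.81 ± 0.32 and Hoxc4 by 0.78 ± 0.19 on the log2 scale. The Hoxb5 change was -2.74 with a pseudocount of 1 and -0.93 with 64. Hoxd3 had a low 6 h value on the array that stands apart, and its rise was 0.52 and did not pass without it, nor did it pass without replicate 2 (0.91) or 3 (0.81) at 24 h. In empty retrovirus, Hoxb3 (0.84 ± 0.23, adjusted p = 0.0105) and Hoxc8 (0.94 ± 0.29, adjusted p = 0.0220) rose and 0 genes fell, against 15.7% of all genes. Hoxb3 did not pass without empty retrovirus 6 h replicate 2 (0.73) or 24 h replicate 2 (0.60), and Hoxc8 did not pass without 6 h replicate 1 (0.75) or 3 (0.95) or 24 h replicate 1 (0.91) or 2 (0.87).

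**Figure D4:**
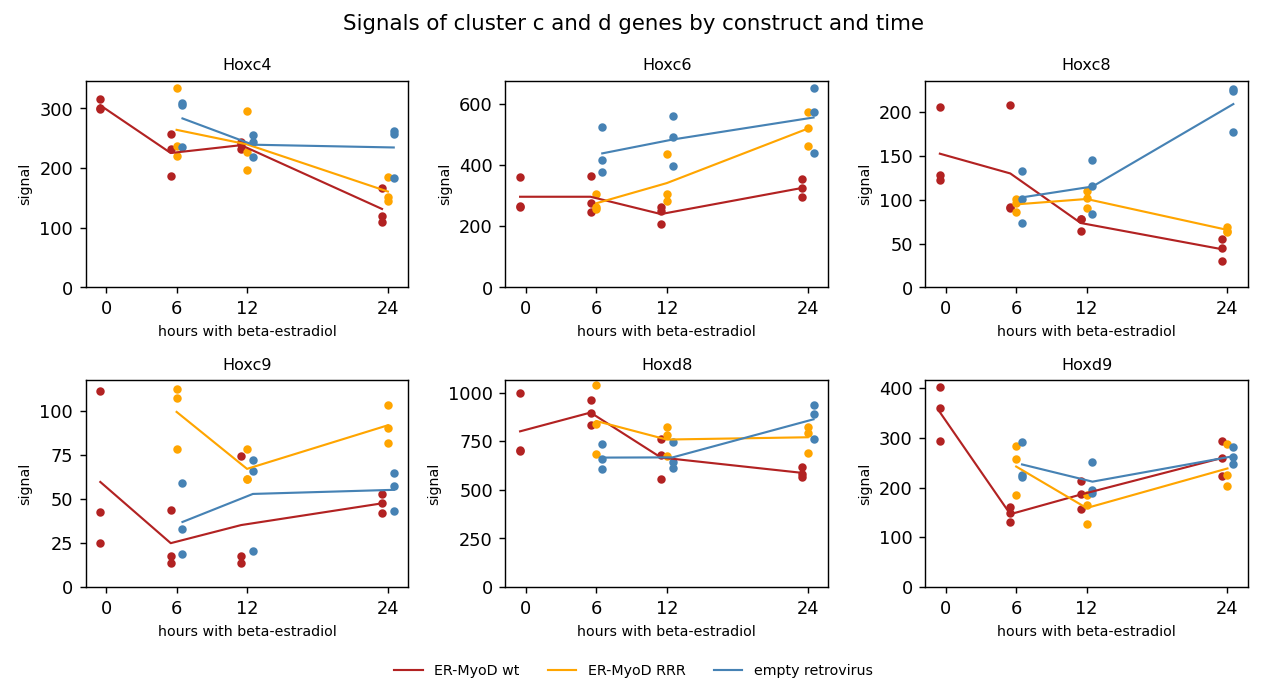
Signals (linear, vertical axis from 0) of 4 cluster c and 2 cluster d genes against hours with beta-estradiol, 1 point per array, with lines through the means of 3 arrays, slightly offset by construct. Hoxc8 separates by construct at 24 h, Hoxc9 is highest in ER-MyoD RRR, and Hoxd9 starts at its highest in ER-MyoD wt at 0 h.

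Much of the same range of cluster b was lower in ER-MyoD RRR. In ER-MyoD RRR minus empty retrovirus averaged over the times, 10 Hox genes were lower and 2 higher (36.4% of the 33), against 25.8% of all genes, 13.4% lower and 12.4% higher. With centring on the array medians, all genes split into 2379 higher and 1736 lower in place of 2248 and 2442, and the Hox counts stayed at 2 and 10. This comparison and ER-MyoD wt minus empty retrovirus share the control arrays, so their values are given side by side. Hoxb3 differed by -1.33 ± 0.13 in ER-MyoD RRR and -1.79 in ER-MyoD wt, Hoxb5 by -1.45 ± 0.19 and -2.18, Hoxb4 by -0.87 ± 0.09 and -1.18, and Hoxb2 by -0.67 ± 0.12 and -1.23. Hoxb9 differed by -0.70 ± 0.17 and -1.53, Hoxb6 by -0.67 ± 0.20 and -1.03, Hoxc5 by -0.46 ± 0.12 and -0.51, and Hoxc6 by -0.40 ± 0.11 and -0.75. With the median of all probe sets of a gene, the ER-MyoD RRR values were -0.56 for Hoxb4 and -0.80 for Hoxc5. When all probe sets were fitted, other ones of Hoxb3 (-1.14 ± 0.17) and Hoxc5 (-1.29 ± 0.20) passed in ER-MyoD RRR minus empty retrovirus. Other probe sets of Hoxb4 (-0.25 ± 0.15), Hoxc5 (-0.38 ± 0.35) and Hoxc6 (-0.30 ± 0.13 and, in the opposite direction, 0.64 ± 0.26) did not pass.

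The remaining calls of ER-MyoD RRR minus empty retrovirus did not pass in all alternatives. Hoxc8 (-0.45 ± 0.17, adjusted p = 0.0434) did not pass in 14 of 28 alternatives. Hoxd3, an anterior gene of cluster d, read 67.9, 57.0 and 83.5 at 0 h, 73.7, 104 and 102 at 6 h, 58.6, 67.4 and 80.5 at 12 h, and 99.6, 63.2 and 97.0 at 24 h in ER-MyoD wt. In ER-MyoD RRR, Hoxd3 read 79.1, 23.8 and 64.2 at 6 h, 79.9, 98.5 and 33.2 at 12 h, and 102, 135 and 157 at 24 h. In empty retrovirus, Hoxd3 read 133, 76.4 and 133 at 6 h, 79.1, 115 and 96.7 at 12 h, and 164, 207 and 169.6 at 24 h. Its arrays overlapped, and the difference of -0.48 ± 0.18 (adjusted p = 0.0499) did not pass in 17 of 28 alternatives; it was -0.34 without ER-MyoD RRR 6 h replicate 2 and -0.32 with a pseudocount of 64.

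With 1 probe set per gene, the 2 genes that passed as higher in the RRR fusion than in the control were Hoxc9 and Hoxb7. Hoxc9, which specifies the thoracic level in the spinal cord, read 42.7, 111 and 24.9 at 0 h, 13.5, 17.6 and 43.6 at 6 h, 13.7, 17.4 and 74.4 at 12 h, and 52.8, 41.9 and 47.9 at 24 h in ER-MyoD wt. In ER-MyoD RRR, Hoxc9 read 107, 112 and 78.7 at 6 h, 61.6, 78.6 and 61.2 at 12 h, and 90.4, 81.9 and 103 at 24 h. In empty retrovirus, Hoxc9 read 59.3, 18.9 and 32.7 at 6 h, 20.5, 66.0 and 72.1 at 12 h, and 57.6, 64.6 and 43.4 at 24 h. ER-MyoD RRR was above both other constructs at 6 and 24 h and overlapped with them at 12 h. Its difference from empty retrovirus was 0.81 ± 0.25 (adjusted p = 0.0147), and 0.62 without the 3 arrays that stand apart, where it did not pass; with a pseudocount of 64 it was 0.48. Hoxb7 group means lay under 100 in all groups, and its difference of 0.50 ± 0.17 (adjusted p = 0.0251) did not pass in 8 of 27 alternatives, and was 0.27 with a pseudocount of 64. A probe set shared by Hoxb8 and Hoxb7, with a mean signal of 78.8, was at -0.46 ± 0.23 in the opposite direction and did not pass.

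The direct comparison of the fusions set cells with the 3 mutated lysines against cells with the wild-type fusion. Mean Myod1 signals at 6, 12 and 24 h were 863, 535 and 471 in ER-MyoD RRR and 897, 802 and 612 in ER-MyoD wt, with overlapping arrays. The part of this difference, or of the transduced populations, in the Hox values was not tested. Averaged over the times, 7 Hox genes were higher in ER-MyoD RRR than in ER-MyoD wt and 0 were lower (21.2% of the 33), against 7.82% of all genes and 4.47% higher. At an unadjusted p under 0.05, 8 were higher and 0 lower. They were Hoxc9 (1.04 ± 0.25, adjusted p = 0.00611), Hoxb9 (0.83 ± 0.17, adjusted p = 0.00120), Hoxb5 (0.72 ± 0.19, adjusted p = 0.0123), Hoxb2 (0.56 ± 0.12, adjusted p = 0.00277), Hoxb3 (0.45 ± 0.13, adjusted p = 0.0309), Hoxc6 (0.36 ± 0.11, adjusted p = 0.0393) and Hoxb4 (0.31 ± 0.09, adjusted p = 0.0325). The 9 arrays of each fusion overlapped for all 7. Hoxb2, Hoxb5, Hoxb9 and Hoxc9 passed in all 28 alternatives, whereas Hoxb3, Hoxb4 and Hoxc6 did not pass in 13, 11 and 13 of them. With a pseudocount of 64 the differences of Hoxc9, Hoxb9 and Hoxb5 were 0.60, 0.52 and 0.38. With centring on the array medians, 4 Hox genes passed, and all genes split into 421 higher and 536 lower in place of 814 and 609. The count was also 4 without replicate 1 of ER-MyoD wt at 6 h or 24 h, replicate 2 of ER-MyoD RRR at 6 h or its replicate 3 at 24 h.

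Of these 7 genes, 5 were in cluster b and 2 in cluster c, and 6 were also lower in ER-MyoD wt than in empty retrovirus, a comparison that shares the ER-MyoD wt arrays. Hoxc9 was the other one. With 1 probe set per gene, clusters a and d had 0 genes past the threshold, with medians of 0.00 and 0.06 and 95% confidence intervals of single genes within -0.79 to 0.59 and -0.48 to 0.52. Among the other probe sets, fitted over all probe sets, 1 shared by Hoxd4 and Hoxd3 was higher in ER-MyoD RRR by 0.78 ± 0.21 (adjusted p = 0.0262), beyond that interval, and another shared by them was at 0.19 ± 0.18. A probe set shared by Hoxb8 and Hoxb7 (0.88 ± 0.23, adjusted p = 0.0236) and a second one of Hoxc6 (0.46 ± 0.13, adjusted p = 0.0416) were also higher. Second probe sets of Hoxb3 (0.28 ± 0.17) and Hoxb4 (0.45 ± 0.15) and another of Hoxc6 (0.28 ± 0.26) did not pass. In this limma fit over all probe sets, the chosen probe sets of Hoxb3, Hoxb4 and Hoxc6 did not pass either (adjusted p = 0.0520, 0.0566 and 0.0673). The skeletal muscle marker sum was lower in ER-MyoD RRR at each time (1827, 5570.2 and 29570 at 6, 12 and 24 h) than in ER-MyoD wt (5814, 12731 and 42246), and the part of this difference in the Hox values was not tested. The fibroblast marker sum was 31679, 27566 and 41877 in ER-MyoD RRR and 29118, 22645 and 29802 in ER-MyoD wt.

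By time, the fusions differed for 4 Hox genes at 6 h, all higher in ER-MyoD RRR, against 3.66% of all genes and 1.63% higher. Hoxb5 differed by 1.95 ± 0.32 (adjusted p = 0.000589; 3.08 with a pseudocount of 1 and 0.98 with 64), Hoxc9 by 1.59 ± 0.43 (adjusted p = 0.0342), Hoxb4 by 0.70 ± 0.16 (adjusted p = 0.0105) and Hoxd9 by 0.63 ± 0.17 (adjusted p = 0.0281). Their arrays did not overlap at 6 h, as was the case for 12.1% of all genes in that direction. Leaving out ER-MyoD wt 6 h replicate 1 left 1 gene, and leaving out ER-MyoD wt 6 h replicate 2 or any 1 of the 3 ER-MyoD RRR 6 h arrays left 2. Hoxb5 passed in each of these. At 12 h, 0 Hox genes passed by limma and 5 had an unadjusted p under 0.05, all higher, against 1.75% of all genes past the threshold. At 24 h, Hoxc6 passed (0.68 ± 0.19, adjusted p = 0.0279), against 5.37% of all genes, and did not without ER-MyoD wt 24 h replicate 1 or 2 or ER-MyoD RRR 24 h replicate 1 or 3.

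For Hoxb5 the difference between the fusions moved with time by -2.27 ± 0.46 from 6 to 24 h (adjusted p = 0.00628), and 2.03% of all genes passed this test. This change was -3.69 with a pseudocount of 1 and -1.11 with 64. At 6 h its mean was 72.4 in ER-MyoD RRR and 7.62 in ER-MyoD wt, and at 24 h the means were 12.6 and 18.9. ER-MyoD wt was thus low from 6 h on, while ER-MyoD RRR was low on all 3 arrays only at 24 h.

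Other probe sets of the clusters were fitted in the same way and are given for ER-MyoD wt minus empty retrovirus averaged over the times. A probe set shared by Hoxb8 and Hoxb7 was lower, at -1.33 ± 0.23 (adjusted p = 5.39e-05), while the probe set of Hoxb7 alone did not pass. Second probe sets of Hoxb3 (-1.43 ± 0.17) and Hoxb4 (-0.71 ± 0.15) passed in the same direction as the first. Hoxc5 had others at -1.34 ± 0.20, which passed, and -0.58 ± 0.35, which did not. Hoxc6 had others at -0.76 ± 0.13, which passed, and 0.36 ± 0.26, which did not. In cluster d, 2 probe sets shared by Hoxd4 and Hoxd3 were lower, at -1.39 ± 0.21 and -0.54 ± 0.18, and a second Hoxd8 probe set was lower, at -0.27 ± 0.09 (adjusted p = 0.0386), so the count of 0 for this cluster rests on the probe set chosen for each gene. The antisense transcript Hoxd3os1 was lower on 1 probe set (-1.43 ± 0.19) and did not pass on the other (-0.12 ± 0.15). A second Hoxa10 probe set with a mean signal of 31.8 was higher by 0.53 ± 0.16 (adjusted p = 0.0184).

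Genes that act with or on the Hox clusters were compared in the averages over the times. The shares to read these lists against are those of all genes, 29.1% in ER-MyoD wt minus empty retrovirus (13% higher and 16.1% lower), 25.8% in ER-MyoD RRR minus empty retrovirus (12.4% and 13.4%) and 7.82% between the fusions. Of 8 measured Hox cofactors, homeodomain proteins that bind DNA with Hox proteins, 2 were higher and 1 lower in ER-MyoD wt than in empty retrovirus: Pknox1 (0.86 ± 0.14), Pbx2 (0.19 ± 0.06) and Meis1 (-0.59 ± 0.17). Of these 8, 3 were higher and 1 lower in ER-MyoD RRR, and 0 differed between the fusions. Of 16 Polycomb genes, which keep Hox genes silent, 1 was higher and 7 lower in ER-MyoD wt, among them Cbx6 (-1.07 ± 0.09), Phc1 (-0.97 ± 0.21), Ezh2 (-0.40 ± 0.07) and Phc2 (-0.38 ± 0.08). In ER-MyoD RRR 1 was higher and 5 lower, and Cbx6 was higher than in ER-MyoD wt (0.40 ± 0.09). Of 9 Trithorax and H3K27 demethylase genes, which oppose Polycomb, Kmt2a alone passed, lower in ER-MyoD wt (-0.58 ± 0.11) and in ER-MyoD RRR (-0.41 ± 0.11).

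Retinoic acid is a known inducer of anterior Hox genes through its nuclear receptors. Against the same shares of all genes, of 6 receptor genes, Rxra was higher (0.63 ± 0.10) and Rarg lower (-0.58 ± 0.12) in ER-MyoD wt, 2 were higher and 1 lower in ER-MyoD RRR, and 0 differed between the fusions. None of the 3 caudal genes, which activate posterior Hox genes in the embryo, passed in these 3 comparisons. Of 15 measured neighbours of the clusters, 4 were higher and 4 lower in ER-MyoD wt, including Cbx5 beside cluster c (0.62 ± 0.07), Snx10 (-0.94 ± 0.15) and Skap2 (-0.51 ± 0.09) beside cluster a, and Mtx2 beside cluster d (-0.25 ± 0.06). In ER-MyoD RRR 2 neighbours were higher and 2 lower, and between the fusions 1 was higher and 2 lower. Of 29 other transcription factors of limb and body position, 2 were higher and 9 lower in ER-MyoD wt, with Prrx1, a marker of limb mesenchyme, at -1.38 ± 0.07, Shox2 at -0.91 ± 0.12 and Irx5 at -0.70 ± 0.08. In ER-MyoD RRR 1 was higher and 4 lower, and 4 were higher than in ER-MyoD wt and 0 lower, among them Prrx1 (0.66 ± 0.07).

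Sums of some other marker lists differed by construct, and their part in the Hox results was not tested. The sum of 4 measured neural and glial markers averaged 339, 348 and 286 in empty retrovirus at 6, 12 and 24 h, 814, 1188 and 1606 in ER-MyoD wt and 536, 748 and 1362 in ER-MyoD RRR, and at each time the arrays of either fusion were all above those of the control. For 5 macrophage and blood markers the means were 331, 355 and 358 in empty retrovirus, 515, 704 and 401 in ER-MyoD wt and 463, 515 and 516 in ER-MyoD RRR. The arrays overlapped with the control for ER-MyoD wt at 24 h and for neither fusion at 6 or 12 h. For 4 endothelial markers the means were 121, 123 and 127 in empty retrovirus, 119, 109 and 125 in ER-MyoD wt and 159, 152 and 209 in ER-MyoD RRR, whose arrays were above those of ER-MyoD wt at 6 and 24 h and overlapped with them at 12 h. Over the 10 groups, mean sums lay between 261 and 573 for 5 epithelial markers and between 17.8 and 38.0 for 3 pluripotent markers.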

How the data were processed

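The deposited values were linear signal intensities, 1 per probe set and array, from biotin-labelled total RNA on a mouse oligonucleotide array, per the labels. How these intensities were computed and scaled is not given in the sources used here. Without the highest and lowest 2% of probe sets, each array averaged between 149.283 and 149.596, so the arrays had been scaled to each other.

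Of 45101 probe sets, 64 controls were left out. Symbols came from the platform annotation, which gave 34945 probe sets a single symbol, gave 932 more than 1 and left 9160 unnamed here; of the single symbols, 34741 were found in the gene table and 0 changed. Signals were first taken to log2(signal + 16), quantile normalization then ran over 45037 probe sets, and 1 probe set stood for each gene. The log2 scale with this pseudocount understates differences of low signals, and no filter on low values was used. limma 3.58.1 in R 4.3.3 fitted 1 mean per group to all 30 arrays (20 residual degrees of freedom, eBayes with trend). Tests were two-sided, with Benjamini-Hochberg adjustment over 18193 genes. The threshold was an adjusted p under 0.05. The script was tested on simulated data. Plots used matplotlib 3.10.9 in Python 3.11.15. The number of arrays limits the precision.

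The Hox members and the other lists were chosen with earlier results of these data known. Values on every array were given for Hox genes that passed in a comparison averaged over the times and had a group mean of at least 100, and for the brightest probe set of each cluster; Hoxc9 and Hoxd9 were added after their values were seen, and up to 4 genes were named per other list. These lists held Hox cofactors, Polycomb genes, Trithorax and H3K27 demethylase genes, caudal genes, retinoic acid receptors, cluster neighbours, limb and body position factors, and markers of fibroblast, skeletal muscle, epithelial, endothelial, macrophage and blood, neural and glial, and pluripotent cells. Alternatives changed the normalization, the pseudocount, the filter, the probe set rule, the trend, the arrays in the fit, the replicate block, and left out single arrays.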

Additional observations from a re-analysis of the deposited data

Results flagged for a closer look

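For 4 results the difference between constructs itself changed from 6 to 24 h in limma's test of that change, adjusted over all genes. For Hoxb5 the difference of ER-MyoD RRR from ER-MyoD wt moved by -2.27 ± 0.46 (adjusted p = 0.00628), from 1.95 at 6 h. The ER-MyoD wt minus empty retrovirus difference moved by -1.06 ± 0.33 for Hoxb3 (adjusted p = 0.0250), by -2.25 ± 0.41 for Hoxc8 (adjusted p = 0.000174) and by -0.92 ± 0.20 for Hoxd8 (adjusted p = 0.00187). Hoxd8 differed in sign between the times, above the control at 6 h on all 3 ER-MyoD wt arrays and below it on all 3 at 24 h.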

How the results depend on the processing

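No Hox gene result that passed reversed its direction under any alternative that was run. Gene results that did not pass were not followed in this way. Of 89 gene results that passed, the number that still passed was 85 on the values as deposited, 78 with median centring, 84 with a pseudocount of 1, 88 with 64, 86 with the median of all probe sets, 86 without the trend, 76 with only the compared arrays in the fit, and 82 without the 3 arrays that stand apart, an alternative chosen after seeing the data; with a mean signal of at least 50 it was 87 of 87. Replicate numbers did not pair the arrays (mean correlation 0.017 for the same number, lowest -0.108, and -0.008 for different numbers), and with the replicate block 86 of 89 passed and each count of Hox genes stayed within 1.5 times.

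For ER-MyoD RRR minus ER-MyoD wt, the count of 4 Hox genes at 6 h was 2 with median centring, 1 with only the compared arrays, and 1 to 4 when single arrays were left out. The count of 0 at 12 h was 1 as deposited, with a pseudocount of 1, with the signal filter, with the median of probe sets and without the 3 arrays, and 0 to 1 when single arrays were left out. The count of 1 at 24 h was 3 as deposited and without the 3 arrays, 0 with median centring, 2 with a pseudocount of 64 or the filter, and 0 to 2 when single arrays were left out. The average over times (7) was 4 with median centring and 4 to 7 when single arrays were left out. The count for the change from 6 to 24 h (1) was 2 with the filter or without the 3 arrays, and 1 to 2 with single arrays left out. The causes were not tested.

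Leaving out single arrays gave 4 to 7 genes for ER-MyoD wt minus empty retrovirus at 6 h, 6 to 8 at 12 h, 10 to 11 at 24 h and 9 to 11 averaged, 9 to 12 for ER-MyoD RRR minus empty retrovirus, and 1 to 2 for empty retrovirus from 6 to 24 h. Weak signals of 14 Hox genes limit what could be seen for them. For ER-MyoD RRR from 6 to 24 h, the median of all genes was -0.02 and became 0.10 as deposited and -0.13 with median centring.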
